A study of Mus musculus with 8 samples.

Results

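The clustered protocadherin genes were examined in mouse primary oligodendrocyte precursor cells (OPCs), the progenitors that mature into the myelin-forming oligodendrocytes (OLs), over 4 days of differentiation. The members were the 59 genes of the deposited expression table, which has 23427 genes, whose symbol begins with Pcdha, Pcdhb or Pcdhg followed by a digit or by a, b or c. They comprised 15 genes of the alpha cluster, 22 of the beta cluster and 22 of the gamma cluster. The rule used only names, so no expression value entered it, but earlier results of these data were known when it was set.

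Wild-type C57BL/6J cells were collected on Day 0, Day 1, Day 2 and Day 3, with 2 libraries per day and 8 in all. Cortical cells of 3 pups, taken at postnatal day 7, had been selected with an antibody against PDGFRα, an OPC surface receptor, bound to a dish. Differentiation was started by adding T3, a thyroid hormone, and withdrawing the growth factor PDGF-AA. Day 0 cells were the undifferentiated cultures, and all groups shared the strain and genotype and had received no other treatment. The labels number the libraries of every day 1 and 2, and the methods call the replicates independent. Neither source says whether a shared number means a shared cell isolation, so the tests measure the spread between these libraries. The labels and the methods describe the culture medium and the extraction kit differently.

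Clustered protocadherins are cell adhesion proteins of the plasma membrane that bind the same protein on a neighboring cell. In neurons, each cell switches on a small and largely random set of alpha, beta and gamma promoters, which gives it a surface identity used in self-avoidance of its branches. In the alpha and gamma clusters, each variable first exon carries its own promoter and encodes the extracellular, transmembrane and first cytoplasmic part, and it is spliced to constant exons that the whole cluster shares. The beta genes have a single exon each and lack a constant part. The C-type genes Pcdhac1, Pcdhac2, Pcdhgc3, Pcdhgc4 and Pcdhgc5 lie at the ends of the alpha and gamma clusters and are controlled differently from the rest. Promoter choice is known to involve CTCF, cohesin and DNA methylation, and glia also express gamma genes.

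The 3 clusters lie side by side on the plus strand of chromosome 18. In RefSeq gene coordinates on GRCm38, the alpha genes span bases 36930285 to 37188897, the beta genes 37264998 to 37521419 and the gamma genes 37661775 to 37841873. RefSeq and the GENCODE M21 models held 58 of the 59 members, and Pcdha4-g matched no entry of either. In the GENCODE M21 transcripts, the alpha members had a first exon of 2346 to 3028 nt followed by 2860 nt of other exons, and the gamma members a first exon of 2499 to 2961 nt followed by 2116 to 2119 nt. Of the 75-base stretches of a transcript, a median of 57.4% were shared with another member of the cluster in alpha and 44.4% in gamma. In the beta cluster the median was 1.23% and the highest value 8.96%.

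These shared exons limit how alpha and gamma values can be read. The values are FPKM as the authors deposited them, in which fragments are divided by the length of the transcript and by the total of the library. Since 1 fragment of a given gene is worth a fixed FPKM in a library, the steps between low values gave the depth, which was 960000 to 1530000 fragments per library. With these depths, 145 of the 168 beta values above 0 (86.3%) came out within 0.1 of a whole number of fragments, against 13 of 87 alpha values (14.9%) and 39 of 162 gamma values (24.1%). Alpha and gamma values therefore cannot be turned back into fragments, and how the authors divided fragments of the constant exons among the members is not given in the sources used here. Levels of single alpha and gamma genes are uncertain for this reason. Pcdhgb8 is annotated as a pseudogene.

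The gamma cluster was the most abundant and was led by a single gene, Pcdhgc3. Pcdhgc3 was at 228, 210, 203 and 116 FPKM on Days 0 to 3 in replicate 1 and at 206, 188, 122 and 45.5 FPKM in replicate 2. It made up between 35.0 and 77.5% of the summed gamma FPKM and between 20.6 and 57.5% of the summed FPKM of all 59 members. The next gamma genes were lower in each library. Pcdhga3 was at 15.4, 16.9, 23.0 and 16.0 FPKM in replicate 1 and at 10.6, 12.9, 14.4 and 9.42 FPKM in replicate 2. Pcdhgb6 was at 14.4, 20.9, 15.2 and 10.7 FPKM in replicate 1 and at 10.3, 7.996, 3.37 and 5.19 FPKM in replicate 2. Both were higher in replicate 1 on every day, and neither was called in any comparison of days.

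Beta genes were each at a low to moderate level, and many of them were measured. The mean FPKM over the 8 libraries had a median of 4.51 across the 22 beta genes, 3.18 across the gamma genes and 0.598 across the 15 alpha genes. The highest beta genes were Pcdhb10, with a mean of 15.4 FPKM, Pcdhb9 and Pcdhb5. Pcdhb5 was at 6.64, 12.2, 10.9 and 14.8 FPKM in replicate 1 and at 4.84, 5.31, 4.89 and 2.36 FPKM in replicate 2. Pcdhb1 was listed at 0 in all 8 libraries, which allows up to 3 fragments in each and covers counting error only.

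Alpha genes were near the limit of detection. Between 1 and 6 of the 14 annotated alpha genes were listed at 0 in a library, and 7 of the 15 did not pass the filter of at least 1 FPKM in at least 2 libraries. Pcdha12 and Pcdha9 had the highest means. Pcdha12 was at 1.42, 4.46, 2.80 and 5.61 FPKM in replicate 1 and at 0, 3.09, 2.70 and 1.77 FPKM in replicate 2. Pcdha9 was at 3.83, 4.29, 1.69 and 3.73 FPKM in replicate 1 and at 1.40, 1.79, 0.370 and 1.72 FPKM in replicate 2. Pcdhac1, a C-type gene, did not exceed 0.423 FPKM in any library and was not tested. In total, 51 of the 59 members passed the filter, with 8 alpha, 21 beta and 22 gamma genes, and 8 did not.

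**Figure D1:**
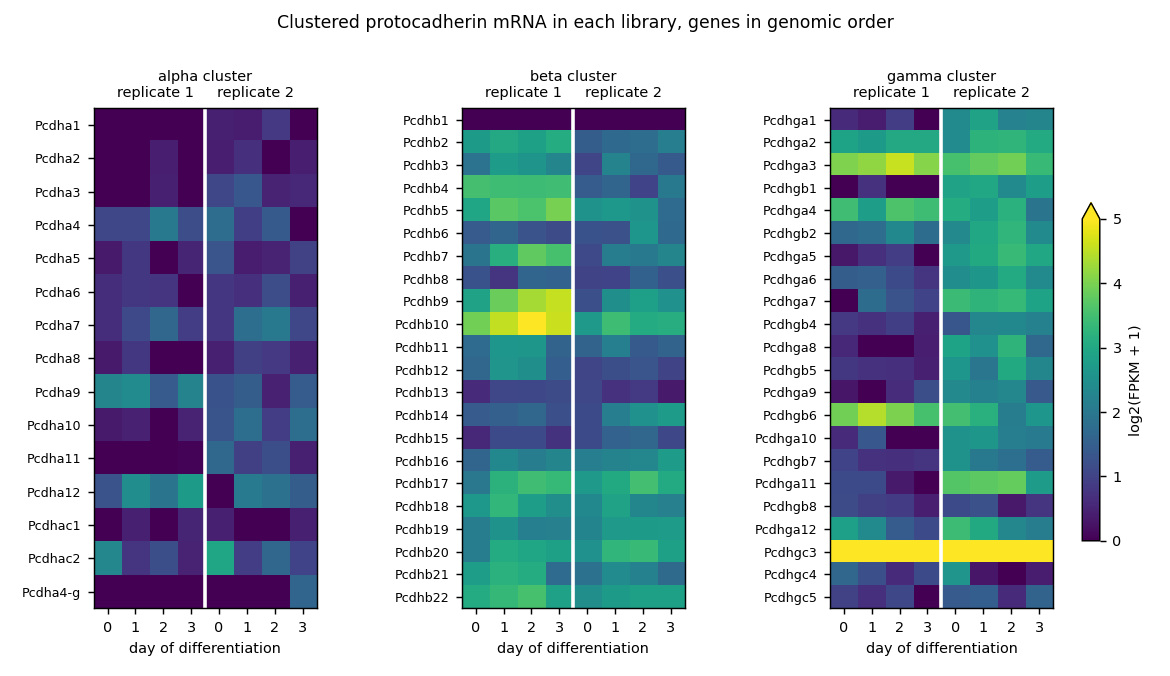
Level of each of the 59 clustered protocadherins as log2(FPKM + 1), in color, with genes in genomic order down each panel (Pcdha4-g, which has no annotated position, is last in alpha) and Days 0 to 3 of replicate 1 and then replicate 2 across it. Pcdhgc3 exceeds the color scale in all 8 libraries, the alpha panel is mostly near 0, and several gamma A and B genes near 0 in replicate 1 are colored in replicate 2.

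The cultures moved from OPCs toward OLs over these days. Of the 5 OPC markers, 4 fell and all 6 OL markers rose from Day 0 to Day 3. Of 5 microglial markers, 4 and the endothelial marker Cldn5 were listed at 0 in all libraries, all 4 mural and fibroblast markers stayed below 1 FPKM, and P2ry12 and Kdr, which were the highest of the microglial and endothelial markers, did not exceed 2.51 and 3.11 FPKM. Of the 5 neuronal markers, Rbfox3, Stmn2, Syt1 and Snap25 did not exceed 0.305, 0.862, 2.05 and 8.46 FPKM. The fifth, Tubb3, was between 20.8 and 231 FPKM and rose from 40.5 to 172 FPKM between the Day 0 and Day 3 means (log2 fold change 2.15, adjusted p = 0.0206 in limma). The 8 astrocyte markers summed to 191 to 496 FPKM in replicate 1 and to 380 to 1062 FPKM in replicate 2. These are bulk RNA samples, in which fewer cells of a type and less RNA per cell cannot be told apart.

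The day comparisons asked how the 3 clusters changed while OPCs matured. From Day 0 to Day 3 the 3 clusters moved differently: in both replicates the beta sum was higher on Day 3 and the gamma sum lower, and the alpha sum was low throughout. In the tests of single genes, limma was fitted on log2(FPKM + 1) to the 12208 genes that passed the filter, and a gene was called at an adjusted p under 0.05. Fold changes on this scale understate the change of low genes. On Day 3 against Day 0, 1 of the 51 members tested was called higher and 3 were called lower. Of all genes tested, 12% were called higher and 26.3% lower, so both shares of the members were below the background.

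The libraries with the same number deviated together, so a fit with the replicate number as a block was also made. In that fit 8 members were called, 4 higher and 4 lower, against 13.2% and 29.1% of all genes. The median log2 fold change of all genes tested was -0.31, and it was -0.04 after median ratio scaling of the libraries and -0.02 after quantile normalization. With median ratio scaling 2 members were called higher and 2 lower, against 17.6% and 16.8% of all genes. With quantile normalization 4 were called higher and 2 lower, against 17% and 17.9%.

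Pcdhgc3 fell. The values given above dropped 1.97-fold in replicate 1 and 4.53-fold in replicate 2 between Day 0 and Day 3, and the Day 0 and Day 3 libraries did not overlap. The mean was 217 ± 15.3 FPKM on Day 0 and 80.6 ± 49.6 FPKM on Day 3 (SD, n = 2). The log2 fold change was -1.56 (SE 0.39), with an adjusted p of 0.0148 in limma and 0.00213 in the fit with the block. Without either Day 0 library the call was lost, at adjusted p = 0.0736 without replicate 1 and 0.0563 without replicate 2 in limma. In neurons, Pcdhgc3 is known to act on dendrite branching through Axin1.

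The gamma sum was lower on Day 3, and Pcdhgc3 made up most of the difference. The summed gamma FPKM was 294, 280, 275 and 169 on Days 0 to 3 in replicate 1 and 330, 311, 246 and 130 in replicate 2, so both Day 3 sums lay below every other sum. The log2 ratio of the Day 3 to the Day 0 mean was -1.06 for all 22 gamma genes. For the 19 A and B genes it was -0.42, from 63.3 to 52.3 FPKM in replicate 1 and from 117 to 82.4 FPKM in replicate 2. Over single genes, the median log2 fold change of the 22 gamma members was -0.40, which was 0.08 below that of all genes. Of the 22, 18 were negative, against 7954 of all 12208 genes tested. With median ratio scaling the gamma median was -0.21 with 14 negative members, and with quantile normalization it was -0.06 with 12. Of all genes, 6324 of 12174 and 6243 of 12210 were negative under these scalings.

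Pcdhga12, the last A-type gene of the gamma cluster, fell as well. It was at 6.06, 4.17, 1.73 and 1.17 FPKM in replicate 1 and at 9.82, 7.23, 3.98 and 3.29 FPKM in replicate 2. Both series declined at each day, and the Day 0 libraries lay above the Day 3 libraries. The Day 3 to Day 0 log2 fold change was -1.52 (SE 0.47), with an adjusted p of 0.0336 in limma and 0.00286 in the fit with the block. The limma call was lost without either Day 0 library or without replicate 1 of Day 3 (adjusted p = 0.0621, 0.179 and 0.159), and also after median ratio scaling (0.0802), quantile normalization (0.12) or without the filter (0.0579).

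The other C-type gamma genes were low and were not called. Pcdhgc4, which is known to be needed for the survival of inhibitory neurons, was at 2.13, 1.33, 0.503 and 1.19 FPKM in replicate 1 and at 5.12, 0.237, 0 and 0.304 FPKM in replicate 2. Both Day 0 libraries were above all later ones, and the log2 fold change to Day 3 was -1.37 (SE 0.51), with an adjusted p of 0.0625 in limma and 0.0515 in the fit with the block. Pcdhgc5 was at 0.950, 0.591, 1.11 and 0 FPKM in replicate 1 and at 1.71, 1.84, 0.529 and 2.01 FPKM in replicate 2, with Day 0 and Day 3 overlapping.

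In the alpha cluster, the C-type gene Pcdhac2 fell early. Pcdhac2 was at 3.97, 0.690, 1.31 and 0.400 FPKM in replicate 1 and at 6.76, 0.870, 2.13 and 1.01 FPKM in replicate 2. Both Day 0 libraries were above all later libraries. The log2 fold change was -1.80 on Day 1 (SE 0.37), with an adjusted p of 0.0165 in limma, and -1.89 on Day 3 (SE 0.37, adjusted p = 0.00525), both against Day 0, so the 2 comparisons share the Day 0 libraries. On Day 3 the call was lost without replicate 2 of Day 0 (adjusted p = 0.0551 in limma), and on Day 1 it was lost without any one of the 4 libraries of Day 0 and Day 1. Pcdhac2 was the only member called on Day 1 in limma, against 7.56% of all genes called lower.

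The remaining alpha genes had no common direction. The summed alpha FPKM was 12.3, 14.7, 12.4 and 13.2 in replicate 1 and 19.8, 16.9, 15.7 and 13.4 in replicate 2. Without the C-type genes it was 8.37 on Day 0 and 12.4 on Day 3 in replicate 1, and 12.6 and 12.01 in replicate 2. The log2 ratio of the full alpha sum was -0.27, and its sign turned with median ratio scaling (0.04) and quantile normalization (0.38). Of the 8 alpha genes tested, 4 were positive and 4 negative on Day 3, with a median of -0.09 that turned to 0.17 and 0.20 under these scalings. Pcdha12 had a log2 fold change of 1.46 (SE 0.53), with an adjusted p of 0.0600 in limma, and was called with the replicate block (SE 0.39, adjusted p = 0.0178). With the block Pcdha12 was also called on Day 1 (log2 fold change 1.60, adjusted p = 0.0277), and it was called after either median ratio scaling or quantile normalization on Day 3.

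The beta sum was higher on Days 1, 2 and 3 than on Day 0 within each replicate. The summed beta FPKM was 89.7, 146, 162 and 139 on Days 0 to 3 in replicate 1 and 55.1, 85.8, 88.1 and 77.6 in replicate 2. In whole fragments, these sums rested on 468, 615, 652 and 510 fragments in replicate 1 and on 242, 388, 409 and 265 in replicate 2. The Day 1 sum was 1.63 times the Day 0 sum in replicate 1 and 1.56 times in replicate 2, and the Day 3 sum was 1.55 and 1.41 times the Day 0 sum. Each beta sum of replicate 1 was above all those of replicate 2, the closest being 89.7 and 88.1 FPKM.

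Over single beta genes, limma called 0 of 21 on Day 1 and 1 of 21 on Day 3, both against Day 0. At an unadjusted p under 0.05 there were 2 and 1. Of all 12208 genes tested, 12.6% and 38.2% were called in either direction, and 3269 and 5864 were at an unadjusted p under 0.05. The median log2 fold change of the beta genes on Day 1 was 0.51 and 20 of 21 were positive. For all genes the median was -0.07 and 5372 of 12208 were positive. On Day 3 the beta median was 0.26, which was 0.57 above that of all genes. On that day 16 of 21 beta genes were positive, against 4231 of all 12208. With median ratio scaling 20 of 21 beta genes were positive on Day 3, with a median of 0.51, and with quantile normalization also 20, with a median of 0.67. Of all genes, 5827 of 12174 and 5945 of 12210 were positive under these scalings. The beta genes are counted in fragments that are few for each gene, and no p is given for the group.

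**Figure D2:**
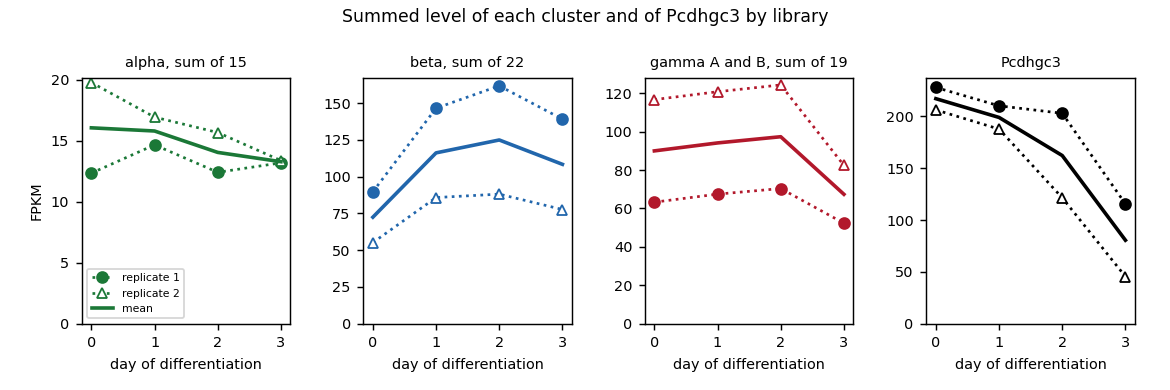
Summed FPKM of the alpha genes, the beta genes and the gamma A and B genes, and the FPKM of Pcdhgc3, against the day of differentiation. Filled circles are replicate 1, open triangles replicate 2 and solid lines their mean; all axes start at 0. The beta sum is lowest on Day 0 in both replicates, replicate 1 lies above replicate 2 for beta and below it for gamma A and B, and Pcdhgc3 is lowest on Day 3 in both.

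Pcdhb17 was the beta gene called from Day 0 to Day 3. It was at 2.99, 8.23, 10.0 and 9.25 FPKM in replicate 1 and at 5.48, 7.17, 10.3 and 7.34 FPKM in replicate 2, from 15, 33, 40 and 33 fragments and from 22, 30, 45 and 23. Both Day 0 libraries were below all later ones. The log2 fold change was 0.86 (SE 0.29), with an adjusted p of 0.0451 in limma and 0.0444 in the fit with the block. Leaving out any library but replicate 2 of Day 0 ended the limma call (adjusted p between 0.0593 and 0.258), and so did leaving out the filter (0.0650).

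Pcdhb7 and Pcdhb9 were called on Day 3 with the replicate block and in no other fit. Pcdhb9 was at 6.40, 13.5, 18.97 and 22.5 FPKM in replicate 1 and at 1.33, 4.61, 6.06 and 4.78 FPKM in replicate 2. Day 3 was 3.52-fold above Day 0 in replicate 1 and 3.59-fold in replicate 2, while the replicates differed throughout, so that the days overlapped. The log2 fold change was 1.49 with an SE of 0.84 in limma (adjusted p = 0.196) and of 0.25 with the block (adjusted p = 0.00214). Pcdhb7 was at 2.79, 7.91, 12.7 and 10.7 FPKM in replicate 1 and at 1.16, 3.35, 3.07 and 3.87 FPKM in replicate 2, with a log2 fold change of 1.40 and adjusted p of 0.133 from limma and 0.00735 with the block. On Day 1 against Day 0 the block added Pcdhb9 (adjusted p = 0.0203), Pcdhb7 (0.0439) and Pcdha12 to the limma call, against 6.09% of all genes called higher in that fit. Pcdhga11 was likewise called on Day 3 with the block alone, at a log2 fold change of -1.02 and adjusted p of 0.600 from limma and 0.0372 with the block.

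Under the scalings, Pcdhb16 and Pcdhb20, which are named here after their values were seen, were called higher on Day 3 with quantile normalization only. Between neighboring later days little was called. On Day 2 against Day 1 limma called 0 members, against 3.89% of all genes, and 0 were at an unadjusted p under 0.05, against 21.8%. On Day 3 against Day 2 limma called 0 members, against 0.295% of all genes, and 3 were at an unadjusted p under 0.05, against 14.5%. The replicate block also called 0 members in both. From Day 2, the log2 fold change of Pcdhgc3 to Day 3 was -1.10 (SE 0.39), with an adjusted p of 0.245 in limma, and without replicate 1 of Day 3 it was called (log2 fold change -1.77, adjusted p = 0.0295).

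**Figure D3:**
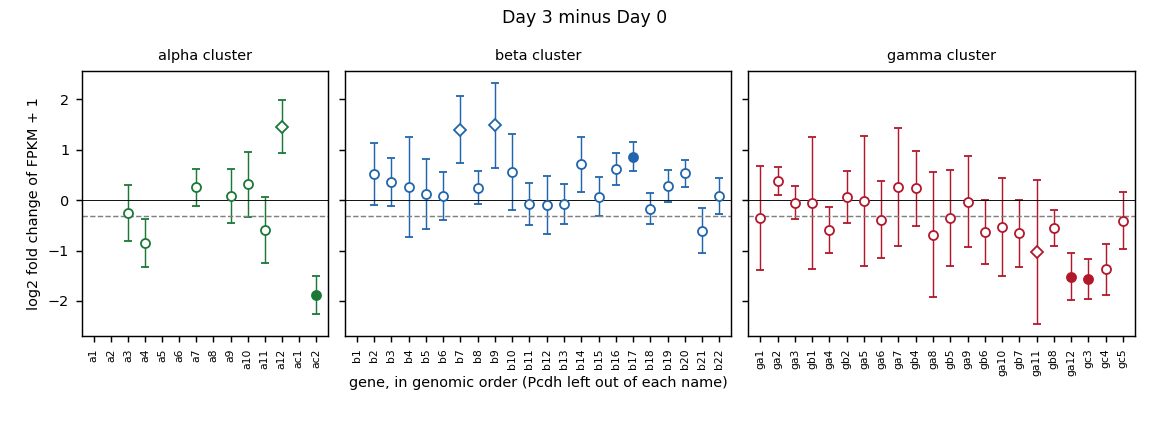
Log2 fold change of FPKM + 1 from Day 0 to Day 3 for the 51 members tested, in genomic order within each cluster, with 1 SE from limma as bars. Filled circles were called in limma, open diamonds with the replicate block only and open circles in neither, and the dashed line is the median of all genes (-0.31). Pcdhac2, Pcdhga12 and Pcdhgc3 are the filled points below 0 and Pcdhb17 the one above.

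More members were called between the replicate numbers than between any of the days compared, but these counts do not compare sizes of effect. The replicate comparison set 4 libraries against 4 with the day in the model. Each day comparison set 2 libraries against 2, and without the block the replicate difference stayed in the residual spread. The libraries of a number were treated as independent, although the replicate differences of the members were correlated between days. The replicate comparison was planned because the replicate series had differed in earlier results of these data. With the day in the model, limma called 14 of 51 members for replicate 2 against replicate 1. The 9 called higher were gamma genes, and the 5 called lower were beta genes. Of all genes tested, 0.68% were called higher and 0.369% lower, in all 128 genes, of which these members were 14. Pcdhga1, Pcdhgb1, Pcdhga5, Pcdhga8 and Pcdhgb5 did not reach 1 FPKM in any library of replicate 1, and Pcdhga10 reached it only on Day 1. These genes passed the filter only through replicate 2, where they were high, so their calls beside these shares are no test. Without the filter Pcdhga8 and Pcdhgb5 were not called, and the others of these were. No alpha gene was called in limma, and 5 of 8 were at an unadjusted p under 0.05, against 1447 of all 12208 genes.

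A group of 9 gamma A and B genes was lower in replicate 1 than in replicate 2 on all 4 days, with no value above 2.41 FPKM in replicate 1 and none below 2.19 FPKM in replicate 2. Pcdhga11 was at 1.18, 1.18, 0.278 and 0 FPKM in replicate 1 and at 11.6, 12.3, 13.2 and 5.68 FPKM in replicate 2. The log2 difference was 2.84 (SE 0.24), with an adjusted p of 0.00161 in limma. Pcdhgb1 was listed at 0 on Days 0, 2 and 3 of replicate 1, where Day 1 was at 0.636 FPKM, and was at 6.40, 6.90, 4.17 and 5.90 FPKM in replicate 2. Its log2 difference was 2.58 (SE 0.23), with an adjusted p of 0.00206 in limma. Pcdhga5 was at 0.255, 0.626, 0.885 and 0 FPKM in replicate 1 and at 5.47, 7.22, 9.54 and 7.02 FPKM in replicate 2, with a log2 difference of 2.55. In these 3 genes the lowest replicate 2 library was several times the highest replicate 1 library.

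The other 6 were Pcdhga8, Pcdhga7, Pcdhga1, Pcdhga10, Pcdhgb5 and Pcdhga6, with log2 differences of 2.35, 2.21, 1.97, 1.86, 1.81 and 1.41 and adjusted p from 0.0114 to 0.0360 in limma. Pcdhga7 was at 0, 2.41, 1.42 and 1.01 FPKM in replicate 1 and at 9.55, 8.53, 9.15 and 6.46 FPKM in replicate 2. Pcdhga8 was at 0.471, 0, 0 and 0.329 FPKM in replicate 1 and at 6.49, 4.77, 8.58 and 2.19 FPKM in replicate 2. Pcdhga6 was at 1.76, 1.88, 1.18 and 0.704 FPKM in replicate 1 and at 4.50, 5.27, 7.30 and 4.21 FPKM in replicate 2. The libraries of the 2 replicates did not overlap for any of the 9, against 1.39% of all genes tested with replicate 2 above. The replicate calls chose these 9 genes, so this is no test. Their summed FPKM was 5.45, 9.26, 5.25 and 2.40 in replicate 1 and 58.3, 59.6, 66.1 and 42.4 in replicate 2. The other 10 A and B genes summed to 57.8, 58.2, 65.1 and 49.9 FPKM in replicate 1 and to 58.4, 61.2, 58.2 and 40.0 FPKM in replicate 2. These 2 sums describe a split that the calls made and are no test.

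The number of gamma A and B genes at 1 FPKM or more followed the same division. Of the 19 A and B genes, 10, 10, 8 and 8 were at 1 FPKM or more on Days 0 to 3 in replicate 1, and 19, 19, 18 and 18 in replicate 2. The 9 called genes, which are among these 19, held 4.59 to 13.7% of the A and B sum in replicate 1 and 49.4 to 53.2% in replicate 2. Since the replicate calls chose the 9 genes, this difference in share was fixed by that choice and is no test. The same 9 genes enter the numbers at 1 FPKM or more, which were not set beside those of all genes and are no test either. The summed level of the whole gamma cluster, which Pcdhgc3 leads, was not set apart in this way, at means of 255 ± 57.5 and 254 ± 90.05 FPKM over the 4 days (SD over days). These near-equal sums combined opposite differences. Pcdhgc3 was higher in replicate 1 on each day, at means of 189 and 140 FPKM, though it was not called. The A and B sum was higher in replicate 2 on each day, at means of 63.3 and 111 FPKM.

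The 5 beta genes moved in the opposite direction. Pcdhb4 was at 10.5, 9.87, 9.71 and 10.1 FPKM in replicate 1 and at 1.75, 2.10, 1.01 and 3.09 FPKM in replicate 2. In fragments this was 60, 45, 44 and 41 against 8, 10, 5 and 11. On Day 0 the 95% Poisson interval was 45.8 to 77.2 fragments in replicate 1 and 3.45 to 15.8 in replicate 2, which covers counting error only. The log2 difference of Pcdhb4 was -1.93 (SE 0.22), with an adjusted p of 0.00654 in limma. In replicate 1 the 4 days differed by less than 1 FPKM. Pcdhb9 and Pcdhb7, with the values given above, had log2 differences of -1.64 and -1.22 (adjusted p = 0.00564 and 0.0450 in limma). The call of Pcdhb7 held in 1 of 15 alternatives, the scaling to equal sums, and its adjusted p rose to as much as 0.250.

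Pcdhb10 was at 14.2, 22.4, 32.6 and 23.2 FPKM in replicate 1 and at 5.45, 9.91, 7.40 and 7.72 FPKM in replicate 2, with a log2 difference of -1.45 (SE 0.18), with an adjusted p of 0.00866 in limma. Pcdhb2 was at 5.64, 7.05, 6.21 and 7.60 FPKM in replicate 1 and at 1.76, 2.25, 2.44 and 3.39 FPKM in replicate 2, with a log2 difference of -1.15 (adjusted p = 0.0340). The replicates did not overlap for Pcdhb2, Pcdhb4, Pcdhb9 and Pcdhb10, against 0.901% of all genes tested with replicate 1 above. For Pcdhb7 replicate 1 was higher on each day. The replicate calls chose these genes, so neither is a test. The 5 genes held 41.5 to 53.3% of the beta sum in replicate 1 and 20.8 to 29.4% in replicate 2, which describes genes that the replicate calls chose and is no test. Beta genes share few stretches with one another, so these values depend less on the division of shared fragments than those of alpha and gamma. Some dependence remains, since Pcdhb7, Pcdhb9 and Pcdhb10 shared 2.54, 3.62 and 3.89% of their 75-base stretches. On Day 2 of replicate 1, Pcdhb7 and Pcdhb9 came to 54.3 and 70.5 fragments, which are not whole numbers.

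Over all 59 members, the 4 libraries of replicate 2 were all above those of replicate 1 in 16 genes, 13 of them gamma and 3 alpha, against 1.39% of the genes tested. All 16 were among the 51 members tested. The 3 alpha genes, named here after their values were seen, were Pcdha3, Pcdha10 and Pcdha11. These 3 and several of the 13 gamma genes, such as Pcdhgb1, Pcdhga5 and Pcdhga8, stayed below 1 FPKM in replicate 1. They passed the filter only through replicate 2, so the count beside this share is no test. Replicate 1 was above replicate 2 without overlap in 9 genes, 7 beta genes and the gamma genes Pcdhga3 and Pcdhgb6, against 0.901% of the genes tested. The median log2 difference was 1.24 over the gamma genes, -0.46 over the beta genes and 0.39 over the alpha genes tested, against -0.05 over all genes.

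Called and uncalled genes were interspersed along the gamma cluster, apart from its last 5 genes, of which none was called in limma. Pcdhga1, the first gene, and Pcdhga11, the 17th, were both called, while Pcdhga2, Pcdhga3 and Pcdhga4 near the start had log2 differences close to or below 0. Along the beta cluster, the 5 called genes were all among the first 10, and the Spearman correlation of position with the log2 difference was 0.51 over 21 genes, against -0.23 over the 22 gamma genes and -0.02 over 14 annotated alpha genes. These correlations describe genes of the same libraries, which share depth and, in alpha and gamma, exons.

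**Figure D4:**
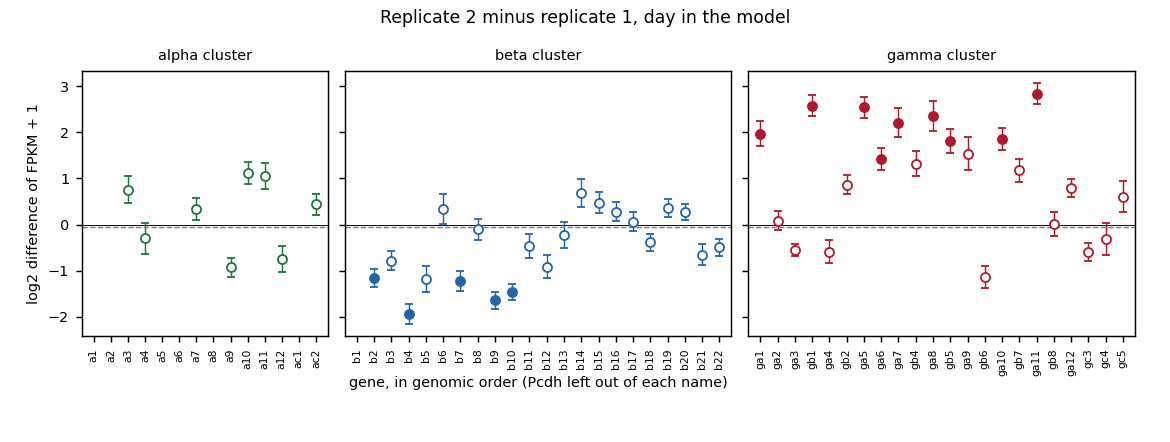
Log2 difference of FPKM + 1 between replicate 2 and replicate 1, with the day in the model, for the 51 members tested in genomic order, with 1 SE from limma as bars. Filled points were called and the dashed line is the median of all genes (-0.05). The 9 filled gamma points lie between 1.41 and 2.84 and the 5 filled beta points between -1.93 and -1.15.

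Pooled over the 3 clusters, the profile of the members was more alike within a replicate number than within a day. Over the 59 members, the Pearson correlation of log2(FPKM + 1) between libraries was 0.729 to 0.952 for the 12 pairs with the same number and 0.614 to 0.702 for the 4 pairs of the same day. The gamma genes alone gave 0.781 to 0.971 and 0.632 to 0.776. For beta the ranges overlapped, at 0.749 to 0.957 and 0.582 to 0.811, and so they did for the low alpha genes, at -0.060 to 0.931 and 0.430 to 0.664. Over the 12157 other genes tested the order was the other way round, with 0.785 to 0.953 for pairs of the same number and 0.949 to 0.965 for pairs of the same day. The correlations are across genes within these 8 libraries, and genes are not independent replicates.

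Other measures moved with the replicate number too. Of the 8 astrocyte markers, 7 were higher in replicate 2 on all 4 days and S100b, which oligodendrocytes also express, was lower on all 4. In limma 5 of the 8 were called higher and S100b lower. Gfap, an intermediate filament gene, was at 14.7, 30.4, 27.3 and 45.5 FPKM in replicate 1 and at 154, 317, 409 and 603 FPKM in replicate 2, and Gja1, the connexin of astrocytes, was listed at 0 on Days 0 and 2 of replicate 1. Pdgfra was lower in replicate 2 with a log2 difference of -1.81 (adjusted p = 0.0461 from limma), and so was Tubb3 (-1.15, adjusted p = 0.00350). Depth was higher in replicate 2 on Days 1 and 2 and lower on Days 0 and 3. The part of any of these in the protocadherin differences was not tested. In the 14 or 15 alternatives run for each gene, the 9 gamma differences stayed positive and the 5 beta differences negative, but the calls did not all hold. Pcdhb9, Pcdhga11, Pcdhga5 and Pcdhgb1 were called in all of them, and Pcdhb4 and Pcdhb10 in 14 of 15. Pcdhga1, Pcdhga7, Pcdhga10 and Pcdhgb5 were called in 9 of 14, Pcdhga8 in 6 of 14, Pcdhga6 and Pcdhb2 in 4 of 14 and Pcdhb7 in 1 of 15.

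Genes that act on the clusters or belong to related families were read beside them from lists chosen with earlier results of these data known. The first list held regulators of promoter choice and chromatin. Of 17 genes listed, 16 were tested, and 1 rose and 9 fell from Day 0 to Day 3 in limma, where 12% of all genes were called higher and 26.3% lower. The median log2 fold change was -0.83 against -0.31 for all genes. Dnmt1, the maintenance DNA methyltransferase, fell from 81.6 ± 4.59 to 14.6 ± 2.77 FPKM (log2 fold change -2.42 with an SE of 0.18 and a limma adjusted p of 8.42e-05). The de novo methyltransferase Dnmt3a rose from 17.8 ± 0.143 to 49.9 ± 4.44 FPKM (log2 fold change 1.43, adjusted p = 0.000601). Of the cohesin subunits, Smc1a and Rad21 fell, with log2 fold changes of -1.60 and -1.53, as did Smc3 and Stag1, while Stag2 was at -0.05 and the cohesin loader Nipbl at -0.41, neither called. Smc3, Stag1, Stag2 and Nipbl were chosen for naming after their values were seen. Ctcf, the insulator protein that pairs promoters with enhancers, had a log2 fold change of -0.90 and was called. Trim28, a corepressor, had a log2 fold change of -1.34 and Smchd1, which represses the clusters in other cells, of -1.19. None of these 16 genes was called between the replicates in limma, where 1.05% of all genes tested were called.

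The non-clustered protocadherins have separate genes elsewhere in the genome. Of 12 listed, 9 were tested, 4 rose and 3 fell in limma, beside the same 12% and 26.3% of all genes. Pcdh15 fell from 40.3 ± 1.12 to 1.38 ± 0.797 FPKM (log2 fold change -4.16 with an SE of 0.44 and a limma adjusted p of 0.000301) and Pcdh11x from 4.37 ± 0.0180 to 0.569 ± 0.225 FPKM (-1.78). Pcdh9, Pcdh17 and Pcdh7 rose, with log2 fold changes of 2.22, 2.07 and 1.24. Pcdh17 was at 26.1 and 25.6 FPKM on Day 0 and at 114 and 109 FPKM on Day 3.

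The remaining lists were of enzymes and partners in protocadherin cleavage and signaling and of other cadherins. Of 20 partners, 18 were tested, 3 rose and 4 fell, beside 12% and 26.3% of all genes, with a median of -0.04. Of 12 other cadherins, 10 were tested, 1 rose and 1 fell, beside the same shares, the latter being Cdh4 (log2 fold change -2.11 with an SE of 0.35 and a limma adjusted p of 0.00223). No gene of these lists was called in the replicate comparison in limma, beside 1.05% of all genes tested.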

How the data were processed

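Total mRNA profiles of 8 libraries (Days 0 to 3, 2 replicates) were used. The authors processed paired 75-nt reads with OmicSoft ArrayStudio and deposited FPKM per gene, and the submitters' processing notes name mm10. The aligner, the gene model and the use of strand in counting are not given in the sources used here, nor is the treatment of fragments shared between genes. The test named in the methods needs counts, so limma 3.58.1 in R 4.3.3 (lmFit, eBayes with a trend) was run on log2(FPKM + 1) for 12208 genes with at least 1 FPKM in at least 2 libraries, with the 4 days as a factor, and p-values were adjusted over all genes by the Benjamini-Hochberg method. The replicate comparison added the replicate number. The script was tested on simulated data. Python 3.11.15, pandas 2.3.3 and matplotlib 3.10.9 did the rest.

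Depth was estimated from steps of low values (960000 to 1530000 fragments). The pairing comes from the label numbers. The correlations of the replicate differences between days were 0.164 to 0.285 over all genes and 0.781 to 0.900 over the members in all 6 pairs of days. Alternatives were a pseudocount of 0.1, no filter, a minimum of 10 FPKM, 3 scalings, the replicate block, no trend, and each library left out.

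Members and lists were chosen with earlier results of these data known. Named were all members called in limma, the 3 highest of each cluster by mean FPKM, the C-type members, up to 12 related genes called from Day 0 to Day 3 by size of change, Ctcf, Rad21, Smchd1, and the 5 genes most like each sum.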

Additional observations from a re-analysis of the deposited data

How the results depend on the processing

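Calls among these members depended on the setting. From Day 0 to Day 3, 4 members were called, 8 with the replicate block, 2 with a minimum of 10 FPKM or without a filter, and 1 to 4 with a library left out. From Day 0 to Day 1 it was 1, then 4 with the replicate block, 3 with quantile normalization, 0 with the minimum of 10 FPKM and 0 to 1 with a library left out. From Day 2 to Day 3 it was 0 to 1 with a library left out. Between replicates it was 14, then 4 with the minimum of 10 FPKM, 8 without a filter, 7 with a pseudocount of 0.1 and 5 to 12 with a library left out. The replicate block changed no other call among the members. The minimum of 10 FPKM leaves 12 members to test. For the rest the cause was not tested.

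The log2 ratio of the alpha sum from Day 0 to Day 3, -0.27, turned to 0.044 with median ratio scaling, 0.38 with quantile normalization, and ranged from -0.57 to 0.11 with a library left out. That of the beta sum, 0.58, was 0.73 with equal sums, 0.89 with median ratio scaling, 1.09 with quantile normalization, and 0.10 to 0.97 with a library left out. Members not called in limma changed sign in places. With median ratio scaling, quantile normalization and equal sums, Pcdhga3 was at 0.24, 0.26 and 0.092, Pcdhgb1 at 0.10, 0.19 and 0.026, and Pcdhga5 at 0.16, 0.34 and 0.076. Quantile normalization gave 0.030 for Pcdhga6 and 0.015 for Pcdhgb5. With a library left out, log2 fold changes ranged from -0.43 to 0.58 for Pcdha9, -0.11 to 1.15 for Pcdhb2, -0.77 to 1.29 for Pcdhb4, -0.99 to 1.24 for Pcdhb5 and -0.19 to 1.29 for Pcdhb10. In gamma they ranged from -1.50 to 0.79 for Pcdhga1, -0.40 to 0.30 for Pcdhga3, -1.49 to 1.39 for Pcdhgb1, -1.51 to 1.49 for Pcdhga5, -1.19 to 0.42 for Pcdhga6 and -1.45 to 1.95 for Pcdhga7. They ranged from -1.86 to 0.48 for Pcdhga8, -1.28 to 0.57 for Pcdhgb5, -1.57 to 0.49 for Pcdhga10, -2.39 to 0.35 for Pcdhga11 and -1.20 to 0.39 for Pcdhgc5. At these depths nearly all beta values rest on fewer than 100 fragments.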

Other observations

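The genes whose course over the 8 libraries was most like a cluster's sum were sought by Pearson's r of log2(FPKM + 1), as a description of libraries that share depth and culture. For the gamma sum, which Pcdhgc3 leads, they were Ehd3, Myt1, B4galnt4, Trim44 and Parp1, with r between 0.980 and 0.994. Myt1, a zinc finger transcription factor of the oligodendrocyte lineage, was at 56.0, 45.5, 40.4 and 23.7 FPKM on Days 0 to 3 in replicate 1 and at 57.9, 58.1, 35.7 and 14.7 FPKM in replicate 2. As in the gamma sum, Day 3 was the lowest day in both replicates.

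For the beta sum they were Tbc1d16, Draxin, Atg10, Fam184a and Usp35, with r between 0.915 and 0.955. Draxin, a guidance molecule for axons, was at 0.752, 2.67, 2.53 and 3.17 FPKM in replicate 1 and at 0.313, 1.20, 1.01 and 1.20 FPKM in replicate 2. Day 0 was the lowest day in both. For the alpha sum they were Camk1g, Acsf3, Tmem59l, Nr2f2 and Cpt1c, with r between 0.934 and 0.952. Nr2f2, a nuclear receptor, did not exceed 0.220 FPKM in replicate 1 and was at 3.29, 2.23, 1.80 and 0.251 FPKM in replicate 2.

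The sum of the 19 gamma A and B genes was added after the data were seen. The genes most like it, which lie outside the rule for named genes, were Matn4, Pdzk1, Xlr3b, Prph and Fgfr1op2, with r between 0.913 and 0.951. Matn4, a matrix protein, was listed at 0 in all 4 libraries of replicate 1 and was at 6.18, 10.1, 11.7 and 3.33 FPKM in replicate 2. Xlr3b was listed at 0 in the same 4 libraries and was at 3.64, 6.29, 2.79 and 1.94 FPKM in replicate 2.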
